A study of Mus musculus with 4 samples.

Results

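The FGF system was followed at the transcript level in fetal mouse leg muscle, cell class by cell class. Its members were taken from the feature table by symbol: every gene named Fgf plus a number, the receptor genes *Fgfr1* to *Fgfr4* and *Fgfrl1*, the Sprouty genes *Spry1* to *Spry4*, and the Klotho co-receptor genes *Kl* and *Klb*. The rule gave 33 of the 32285 genes in the table: 22 ligand genes, 5 receptor genes, 4 Sprouty genes and 2 Klotho genes. All 33 had at least 1 unique molecular identifier (UMI, the tag that marks 1 captured transcript), while 26983 genes of the whole table did.

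Single cells came from the leg muscles of fetal mice at E18.5, and transcripts were tagged near their ends in droplets. There were 2 wild-type (WT) libraries and 2 libraries from mice labelled KO, in which *SYISL*, a long non-coding RNA gene, was knocked out, and the study describes the 2 genotypes as littermates. The series' design text calls the libraries of a genotype biological replicates, and neither it nor the labels say how many fetuses entered a library, their sex, or which part of *SYISL* was deleted. *SYISL* was not analysed here, since the feature table has no row of that name, so the genotype labels were not checked against it.

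Cells were filtered here with the thresholds that the study states. This left 36969 of 41741 cells, with 8177 to 10461 cells and 93728519 to 108962643 UMIs in a library. Library medians were 9118 to 11427 UMIs per cell. The study reports a lower count of cells after filtering, so its cell set is not identical to the set used here. Pairs of libraries shared 15 to 27 cell barcodes, at most 0.330% of a library. One library stood apart: KO replicate 2 held 131038 UMIs of *Xist*, against 0 to 5 in the other libraries, and 105 UMIs of Y-linked genes against 25478 to 27856, so the libraries differ in sex as well as in genotype. *Fgf13* and *Fgf16* lie on the X chromosome. Cells were clustered without the 33 genes and named from marker genes: 18767 cells were fibro-adipogenic progenitor (FAP)-like (connective tissue cells of muscle), 6731 myogenic-like, 2302 chondrocyte-like, 2176 tenocyte-like, 1832 glial-like, 1345 endothelial-like, 1749 smooth muscle or pericyte-like, 1116 macrophage-like, 287 mast-like and 214 neutrophil-like. A cluster of 450 cells led by both pigment cell genes (*Dct*, *Pmel*) and myogenic genes (*Pax7*), with *Fgfr4* also among its leading genes, stayed unnamed. It held 50 and 36 cells in the WT and 118 and 246 cells in the KO libraries, and was in none of the class comparisons. In a finer clustering, 326 cells led by *Pax7* and *Fgfr4* and 134 led by pigment cell genes, 127 of these from KO replicate 2, stayed unnamed. Of the 14 myogenic markers 13 were highest in the myogenic-like class, and of the 12 FAP markers 9 were highest in the FAP-like class.

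Fibroblast growth factors are secreted proteins that bind tyrosine kinase receptors together with heparan sulphate and switch on the Ras and ERK cascade. Sprouty proteins are induced by that cascade and dampen it. In developing muscle, FGF signals are known to hold progenitors in an undifferentiated state, *Fgfr4* is known from embryonic and fetal muscle progenitors, and *Spry1* from quiescent adult muscle stem cells. A subgroup of the family, *Fgf11* to *Fgf14*, is different: its products stay inside the cell and bind voltage-gated sodium channels. *Fgf15*, *Fgf21* and *Fgf23* are hormones that need a Klotho protein beside the receptor.

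RefSeq gave the 250 bases upstream of the start for 24 of the 33 genes. The stretches before *Fgf7* and *Fgf10*, the ligand genes that were highest in FAP-like cells but moved in opposite directions between myogenic stages, and before *Spry1* are shown 5′ to 3′ on the coding strand. Capitals mark E-boxes, the letters CANNTG, which read the same on both strands and are the kind of site that myogenic transcription factors bind.
*Fgf7*: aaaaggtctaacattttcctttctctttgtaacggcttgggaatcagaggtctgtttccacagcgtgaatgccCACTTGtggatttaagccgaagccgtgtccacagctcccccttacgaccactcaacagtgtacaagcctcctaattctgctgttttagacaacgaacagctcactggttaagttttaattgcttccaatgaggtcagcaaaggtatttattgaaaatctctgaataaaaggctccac
*Fgf10*: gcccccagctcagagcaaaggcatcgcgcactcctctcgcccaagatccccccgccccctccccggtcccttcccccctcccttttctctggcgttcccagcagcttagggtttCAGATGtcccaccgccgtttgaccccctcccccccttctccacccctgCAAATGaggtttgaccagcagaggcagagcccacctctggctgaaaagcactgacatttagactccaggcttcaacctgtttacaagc
*Spry1*: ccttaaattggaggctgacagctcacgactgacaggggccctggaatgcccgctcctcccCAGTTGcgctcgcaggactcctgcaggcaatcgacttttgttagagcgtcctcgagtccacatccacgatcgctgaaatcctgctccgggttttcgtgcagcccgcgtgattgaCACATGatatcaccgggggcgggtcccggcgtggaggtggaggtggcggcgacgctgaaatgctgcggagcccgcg
The *Fgf7* stretch (GRCm38.p6, chr2:126034408-126034657, plus strand) holds 1 E-box, which begins 177 bases before the start. The *Fgf10* stretch (chr13:118714449-118714698, plus strand) holds 2, at 136 and 88 bases, and the *Spry1* stretch (chr3:37639697-37639946, plus strand) holds 2, at 190 and 76 bases. Of the 27025 RefSeq stretches of this length 66.0% hold at least 1 such motif and 31.7% at least 2, so the matches are a description of the letters and no more. In the GENCODE annotation the *Fgf10* gene begins further upstream, and the printed stretch then lies within an intron.

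The unit of level is CPM, which counts a gene's UMIs per 1000000 UMIs of its class in 1 library, with the mean ± SD over the 4 libraries of both genotypes where stated. Since classes were formed from the same cells, levels across classes are a description with no test. Of the 33 genes, 16 reached a mean of 20 CPM in a class. Their highest class was chondrocyte-like for 6, myogenic-like for 3, FAP-like for 3, smooth muscle or pericyte-like for 2, and tenocyte-like and glial-like for 1 each. In 14 of the 16 the 4 libraries of the highest class lay above all 4 of the next class.

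**Figure D1:**
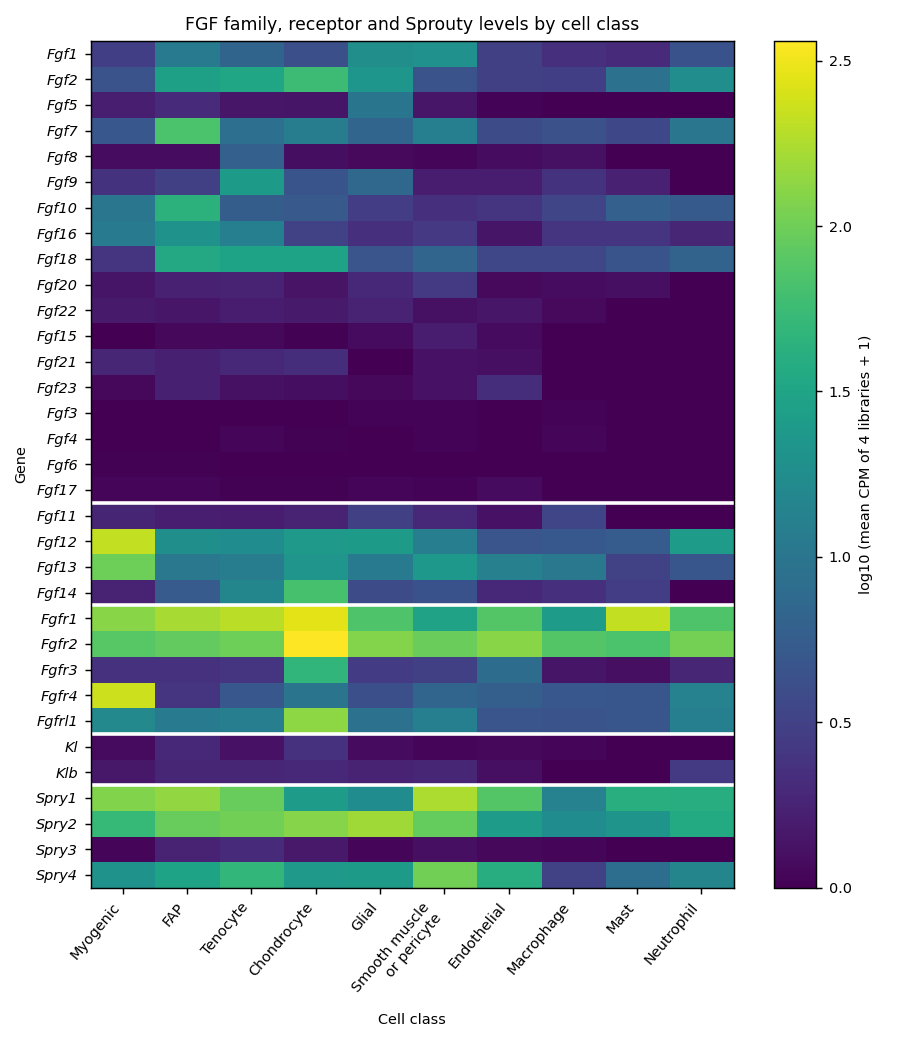
Mean level of the 33 genes (rows) in the 10 named cell classes (columns), as log10 of the mean CPM of 4 libraries plus 1. White lines part the secreted ligands, the intracellular *Fgf11* to *Fgf14*, the receptors, the Klotho genes and the Sprouty genes. *Fgfr4* and *Fgf12* are bright in 1 column, myogenic-like cells, while *Fgfr1*, *Fgfr2* and *Spry1* are found in many.

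Among the secreted ligands, FAP-like cells led for *Fgf7* and *Fgf10*, both of the subfamily that signals mainly to epithelial forms of *Fgfr2*. *Fgf7* had 69.1 and 68.6 CPM in WT and 74.9 and 58.4 CPM in KO, with the next class, smooth muscle or pericyte-like cells, at 7.37 to 15.1 CPM. *Fgf10* was at 32.8 and 44.0 CPM in WT and at 50.1 and 44.5 CPM in KO, against 8.17 to 10.3 CPM in myogenic-like cells. Neither gene's FAP-like range met that of another class.

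*Fgf18*, a ligand known for its part in cartilage and bone growth, was shared by 3 mesenchymal classes. It was at 29.6 and 33.5 CPM in the WT FAP-like cells and at 36.9 and 37.2 CPM in KO. Chondrocyte-like cells held 24.7 to 32.0 CPM and tenocyte-like cells 26.9 to 31.6 CPM, so these neighbours overlapped, while myogenic-like cells held 0.913 to 1.83 CPM. *Fgf2*, the broadly acting basic FGF, was highest in chondrocyte-like cells, at 60.4 and 58.7 CPM in WT and at 45.7 and 58.2 CPM in KO. Tenocyte-like (30.02 to 32.8 CPM), FAP-like (25.8 to 29.2 CPM) and glial-like cells (19.8 to 22.6 CPM) followed in that order with no overlap between neighbours. The mean of *Fgf2* in myogenic-like cells was 3.53 CPM.

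Tenocyte-like cells led for *Fgf9*, at 17.9 and 28.2 CPM in WT and at 19.7 and 28.5 CPM in KO, with the spread lying within each genotype. They also held *Fgf8*, better known from the limb bud ridge and other embryonic signalling centres, at 3.68 to 6.89 CPM, where no other class passed a mean of 0.312 CPM. *Fgf1* (acidic FGF) was at 15.9 to 21.0 CPM in smooth muscle or pericyte-like cells and at 13.3 to 20.2 CPM in glial-like cells, which overlapped. *Fgf5* was highest in glial-like cells, at 4.20 to 13.0 CPM, with a mean of 1.01 CPM in the next class. *Fgf16* was highest in FAP-like cells, at 17.5 to 20.9 CPM, followed by tenocyte-like (8.91 to 15.6 CPM) and myogenic-like cells (9.59 to 11.5 CPM), which overlapped.

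*Fgf6*, a ligand known for its muscle-restricted expression, was hardly detected, with 7 UMIs in all and 2 in myogenic-like cells. *Fgf3* had 5 UMIs, *Fgf4* had 7, *Fgf17* had 32 and *Fgf15* had 54. *Fgf22* had 183 UMIs, *Fgf23* had 188, *Fgf21* had 258 and *Fgf20* had 272. The highest class mean of these 9 genes was 1.73 CPM, for *Fgf20* in smooth muscle or pericyte-like cells, so their order across classes was not read. *Kl* (263 UMIs) and *Klb* (302 UMIs), the partners of the endocrine ligands, were as low, with class means up to 1.30 and 1.74 CPM. The highest *Klb* value rested on a single neutrophil-like library, the other 3 being at 0.

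The intracellular members gave some of the clearest class patterns. *Fgf12* was at 232 and 214 CPM in the WT myogenic-like cells and at 234 and 153 CPM in KO, where KO replicate 2 was the lowest, and other classes had means of 3.77 to 24.8 CPM. *Fgf13* was at 100.5 and 96.1 CPM in WT and at 96.1 and 94.7 CPM in KO myogenic-like cells, followed by smooth muscle or pericyte-like cells at 20.0 to 24.8 CPM. *Fgf14* was highest in chondrocyte-like cells, at 50.7 and 69.5 CPM in WT and at 85.1 and 49.9 CPM in KO, and *Fgf11* stayed at or below a mean of 2.45 CPM in each class. *Fgf12*, *Fgf13* and *Fgf14* span 593, 506 and 699 kb in the annotation, and their UMIs may hold unspliced transcripts.

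Of the 5 receptor genes only *Fgfr4* had myogenic-like cells as its highest class. These cells also held *Fgfr1* (116 to 137 CPM) and *Fgfr2* (73.7 to 85.9 CPM). *Fgfr4* had 244 and 237 CPM in WT and 231 and 208 CPM in KO, a mean of 230 ± 15.6 CPM (SD, n = 4), while FAP-like cells had a mean of 1.48 CPM. Within a library the myogenic-like level was 105 to 196 times the FAP-like level. After each cell was thinned to 5000 UMIs, *Fgfr4* was seen in 63.9% of myogenic-like cells (82.4% without thinning; median 9914 UMIs per cell), in 0.584% of FAP-like cells (median 10332) and in 0.600% of macrophage-like cells (median 10714), a class in which the gene is not known to be active. The FAP-like share was thus at the background level. *Fgfr4* (GENCODE vM21, chr13:55152640-55168759, plus strand) had no overlapping gene in the annotation.

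*Fgfr1*, the broad mesenchymal receptor, was highest in chondrocyte-like cells, at 282 and 280 CPM in WT and at 296 and 270 CPM in KO. Mast-like (174 to 262 CPM), tenocyte-like (185 to 212 CPM) and FAP-like cells (164 to 170 CPM) followed. The mast-like range met that of tenocyte-like cells, and FAP-like cells lay below tenocyte-like and above myogenic-like cells (116 to 137 CPM). Macrophage-like and smooth muscle or pericyte-like cells were lowest, with means of 25.3 and 29.1 CPM. *Fgfr3*, which restrains growth plate cartilage, was at 71.9 and 48.6 CPM in the WT chondrocyte-like cells and at 29.1 and 42.0 CPM in KO, and no other class passed a mean of 7.04 CPM.

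*Fgfrl1*, a receptor without a kinase domain, was at 146 and 137 CPM in the WT chondrocyte-like cells and at 109 and 131 CPM in KO. The next class, myogenic-like cells, held 13.4 to 17.7 CPM as a whole, although the 79 myotube-like cells among them had a mean of 155 CPM from 122 UMIs (83.8 to 218 CPM). *Fgfr2* was at 366 and 398 CPM in the WT chondrocyte-like cells and at 349 and 336 CPM in KO, and the other classes had means of 67.5 to 126 CPM, with 74.7 CPM in macrophage-like cells. That near-even level should be read with care: the GENCODE vM21 model of *Fgfr2* (chr7:130162451-133123350, minus strand) spans 2961 kb and overlaps 22 genes on the same strand, so its UMIs can hold transcripts from that stretch. The annotation used by the authors is not given in the sources used here.

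The feedback inhibitors were spread over more classes than the ligands. *Spry1* was highest in smooth muscle or pericyte-like cells, at 163 and 191 CPM in WT and at 181 and 170 CPM in KO. FAP-like cells held 127 to 151 CPM and myogenic-like cells 107 to 129 CPM, so these 2 neighbours overlapped, and glial-like and macrophage-like cells were lowest, with means of 16.6 and 12.5 CPM. *Spry2* had a different order, with glial-like cells first, at 134 and 180 CPM in WT and at 161 and 154 CPM in KO. Chondrocyte-like cells followed at 107 to 152 CPM, which met the glial-like range, and myogenic-like cells held 48.6 to 53.1 CPM. *Spry4* was at 103 and 104 CPM in the WT smooth muscle or pericyte-like cells and at 97.8 and 104 CPM in KO, above the tenocyte-like range of 43.2 to 53.8 CPM. *Spry3* had 221 UMIs and class means of at most 1.07 CPM.

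The myogenic-like cells were divided into 3392 progenitor-like cells, 1362 myoblast-like cells, 79 myotube-like cells and a cycling sub-cluster of 1898 cells led by *Kif11*, *Aurkb* and *Top2a* that was given no stage. Several receptor, ligand and inhibitor genes, though not all, differed between the progenitor-like and myoblast-like cells of each library. *Fgfr4* was at 269 and 270 CPM in the WT and at 254 and 228 CPM in the KO progenitor-like cells, and at 139 and 167 CPM in the WT and 129 and 138 CPM in the KO myoblast-like cells. The progenitor-like level was 1.62 to 1.97 times the myoblast-like level. In the few myotube-like cells the mean was 25.9 CPM, from 21 UMIs.

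*Fgf12* had a wider gap, with 335 and 317 CPM in WT and 346 and 228 CPM in KO progenitor-like cells, against 14.3 to 25.9 CPM in myoblast-like cells, a ratio of 12.9 to 22.1. *Spry1* was at 167 and 152 CPM in WT and 164 and 143 CPM in KO progenitor-like cells and at 31.6 to 43.0 CPM in myoblast-like cells. *Fgf13* had means of 97.8 CPM in progenitor-like, 131 CPM in cycling and 31.8 CPM in myoblast-like cells, and 238 CPM in myotube-like cells, where libraries ranged from 142 to 423 CPM on 167 UMIs. *Fgfr1*, by contrast, was nearly even, with the progenitor-like level 1.15 to 1.22 times the myoblast-like level. For *Fgfr2* it was 1.01 to 1.19 times.

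Progenitor-like cells also carried low levels of ligand transcripts. *Fgf10* was at 11.5 to 14.9 CPM and *Fgf16* at 13.7 to 18.1 CPM there, against 0.468 to 1.79 and 0.316 to 1.40 CPM in myoblast-like cells. Per 100 UMIs of *Dcn*, an abundant FAP transcript, FAP-like cells held 1.84 UMIs of *Fgf10*, macrophage-like cells 2.30, endothelial-like cells 1.29 and progenitor-like cells 61.0. For *Fgf16* the values were 0.819 in FAP-like, 1.25 in macrophage-like and 76.6 in progenitor-like cells. The part of free RNA from FAP-like cells in these levels was not tested. *Fgf10* was seen in 4.67% of progenitor-like cells after thinning (7.96% without; median 8298 UMIs) and in 0.389% of macrophage-like cells (1.21% without; median 10714 UMIs).

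*Fgf7* and *Spry4* ran the other way. *Fgf7* was at 9.19 to 12.8 CPM in myoblast-like and 0.992 to 1.59 CPM in progenitor-like cells, with 74.2 and 5.90 UMIs per 100 of *Dcn*, against 2.89 in FAP-like cells. *Spry4* was at 49.9 and 44.6 CPM in the WT and at 58.5 and 57.7 CPM in the KO myoblast-like cells, and at 8.06 to 12.5 CPM in progenitor-like cells, so *Spry1* and *Spry4* had opposite orders. *Spry2* was near even, at 53.4 to 61.9 CPM in myoblast-like and 46.4 to 54.8 CPM in progenitor-like cells.

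**Figure D2:**
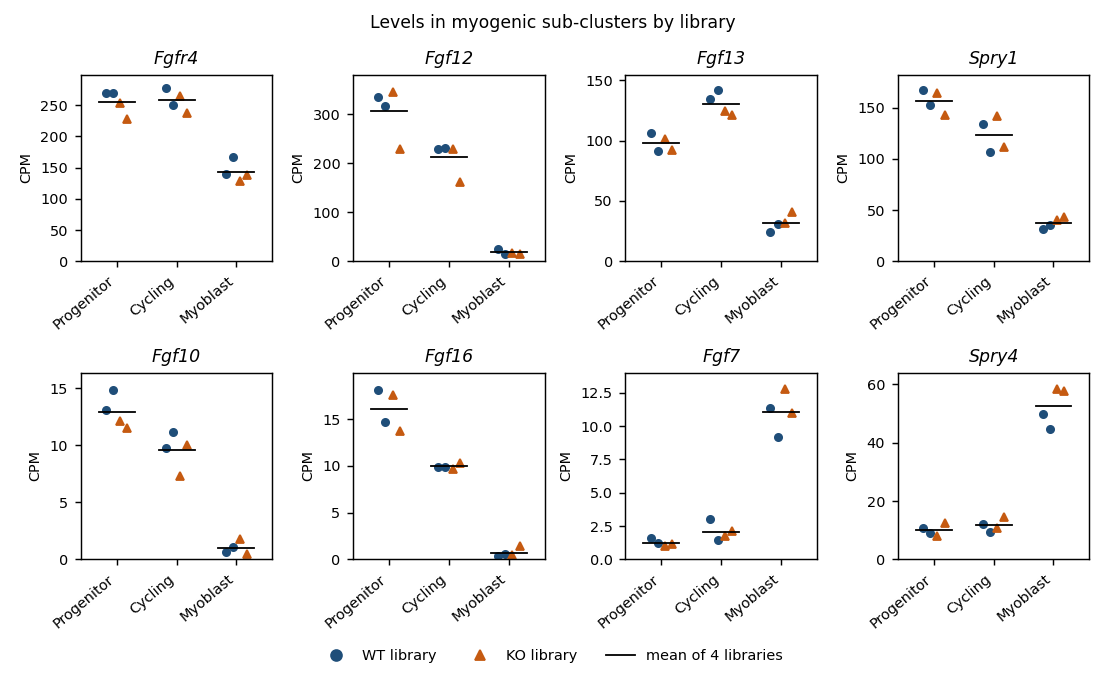
CPM of 8 genes (y axes, each from 0) in the progenitor-like, cycling and myoblast-like sub-clusters, with 1 point per library (circles WT, triangles KO) and a line at the mean of 4 libraries. *Fgfr4*, *Fgf12*, *Fgf13*, *Spry1*, *Fgf10* and *Fgf16* are lower in all 4 myoblast-like points than in any progenitor-like point, and *Fgf7* and *Spry4* are higher.

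The FAP-like class held 4 clusters, and ligands and inhibitors were unevenly placed among them. *Fgf10* was concentrated in the cluster led by *Ly6a* and *Pi16* (6117 cells), at 79.3 and 94.7 CPM in WT and 113 and 102 CPM in KO, against 11.5 to 18.6 CPM in the cluster led by *Hpse2* and *Smoc2* (8634 cells), a ratio of 6.09 to 7.89 within a library. *Fgf10* was not used for clustering and still stood among the 10 leading genes of the *Ly6a* and *Pi16* cluster. *Fgf7* was at 86.6 to 112 CPM in that cluster, at 102 to 116 CPM in the cluster led by *Ccl11* and *Hhip* (1478 cells) and at 36.9 to 48.2 CPM in the *Hpse2* and *Smoc2* cluster. *Fgf18* was at 45.5 to 51.3 CPM in the *Ly6a* and *Pi16* cluster and at 13.7 to 18.3 CPM in the *Ccl11* and *Hhip* cluster.

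*Spry1* and *Spry4* had the reverse order. *Spry1* was at 196 and 183 CPM in WT and 208 and 190 CPM in KO in the *Hpse2* and *Smoc2* cluster, and at 67.8 to 74.4 CPM in the *Ly6a* and *Pi16* cluster, where *Fgf10* was highest. *Spry4* was at 36.5 to 45.4 and at 13.1 to 14.6 CPM in the same clusters. *Fgfr1* had the same order as *Fgf10*, at 204 to 218 CPM in the *Ly6a* and *Pi16* cluster against 142 to 147 CPM in the *Hpse2* and *Smoc2* cluster. The *Ccl11* and *Hhip* cluster was the highest of the 4 for *Fgf1* (21.3 to 30.3 CPM, against 6.55 to 12.1 CPM in the others).

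**Figure D3:**
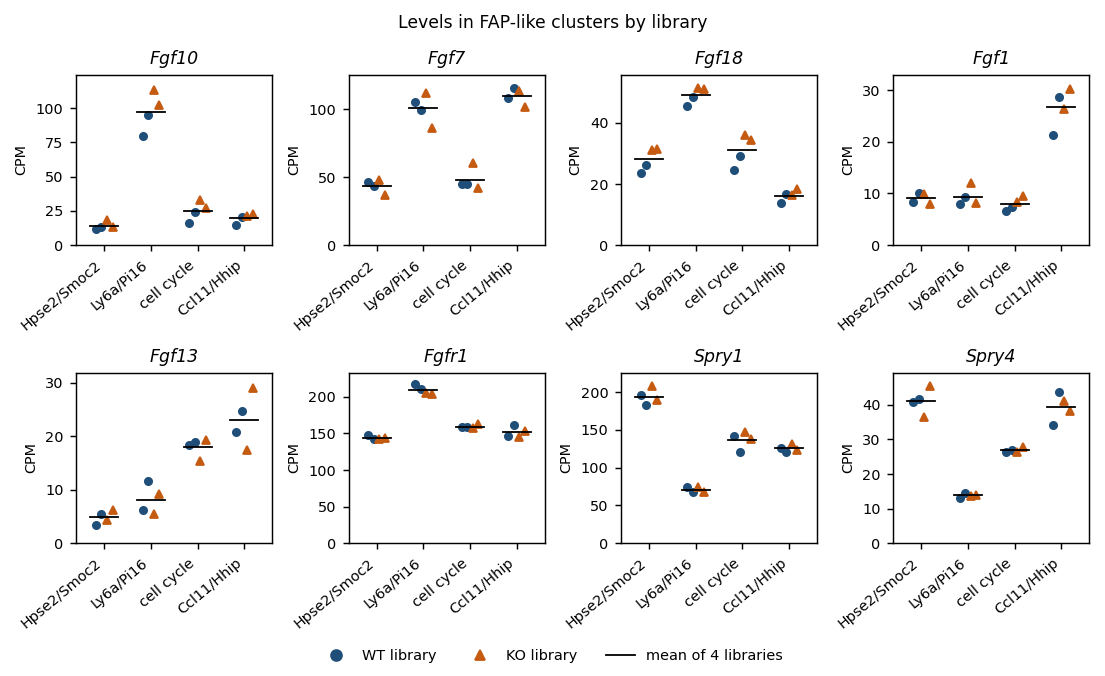
CPM of 8 genes (y axes, each from 0) in the 4 FAP-like clusters, named by leading genes, with 1 point per library (circles WT, triangles KO) and a line at the mean. *Fgf10* peaks in the *Ly6a* and *Pi16* cluster, in which *Spry1* and *Spry4* are lowest, and *Fgf1* peaks in the *Ccl11* and *Hhip* cluster.

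The other genes of the pathway were taken as 5 lists of 57 genes in all: adaptors, Ras and MAP kinases, ERK-induced genes, other inhibitors, and ligand carriers and co-receptors. The adaptor gene *Gab1* had means of 141 CPM in myogenic-like and 102 CPM in FAP-like cells. Of the ERK-induced genes *Egr1* was at 1665 and 1472 CPM and *Fos* at 1561 and 1811 CPM in the same classes, both genes that also respond to cell dissociation. *Gpc3*, a cell surface heparan sulphate carrier, had a mean of 1095 CPM in FAP-like, 704 CPM in progenitor-like and 101 CPM in myoblast-like cells. *Nf1*, a brake on Ras, had 216 CPM in progenitor-like and 164 CPM in myoblast-like cells.

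KO was compared with WT over libraries, by edgeR's quasi-likelihood test on UMIs summed per library and class with p-values adjusted by Benjamini-Hochberg across every gene in the fit, in the 9 classes and 2 myogenic stages with at least 50 cells in each library. No FGF system gene passed an adjusted p of 0.05 in any of them, among 28 genes and 170 tests, and DESeq2 called 0 as well. In myogenic-like cells 0 of 21 were called, beside 0% of 14713 genes, and their median log2 fold change of KO against WT was 0.014, against 0.0022 over all genes. In FAP-like cells 0 of 28 were called, beside 0% of 18375 genes, with medians of 0.033 and -0.00071. Background shares were 0% in chondrocyte-like, glial-like, macrophage-like, tenocyte-like, progenitor-like and myoblast-like cells, 0.017% in endothelial-like, 0.0981% in mast-like and 0.151% in smooth muscle or pericyte-like cells. *Fgf3*, *Fgf4*, *Fgf6*, *Fgf15* and *Fgf17* were too low to be tested in any class.

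The main receptor and inhibitor genes of the myogenic lineage had small differences. In myogenic-like cells *Fgfr4* had a log2 fold change of -0.09 ± 0.07 (SE), *Fgf12* of -0.17 ± 0.16, *Spry1* of 0.05 ± 0.11 and *Spry4* of 0.27 ± 0.13 (adjusted p = 0.966 for each by edgeR, except 0.972 for *Spry1*). In a simulation on these libraries, the same test recovered 80.6% of 2-fold and 44.9% of 1.5-fold changes in myogenic-like cells and 68% and 25.5% in FAP-like cells, so smaller differences may have gone undetected. Many randomly drawn genes were changed at once there, and 20 and 16 unchanged genes were called as well. Recovery when few genes change was not simulated. With 2 libraries per genotype, an exact permutation test of a single gene cannot give a p below 0.333.

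**Figure D4:**
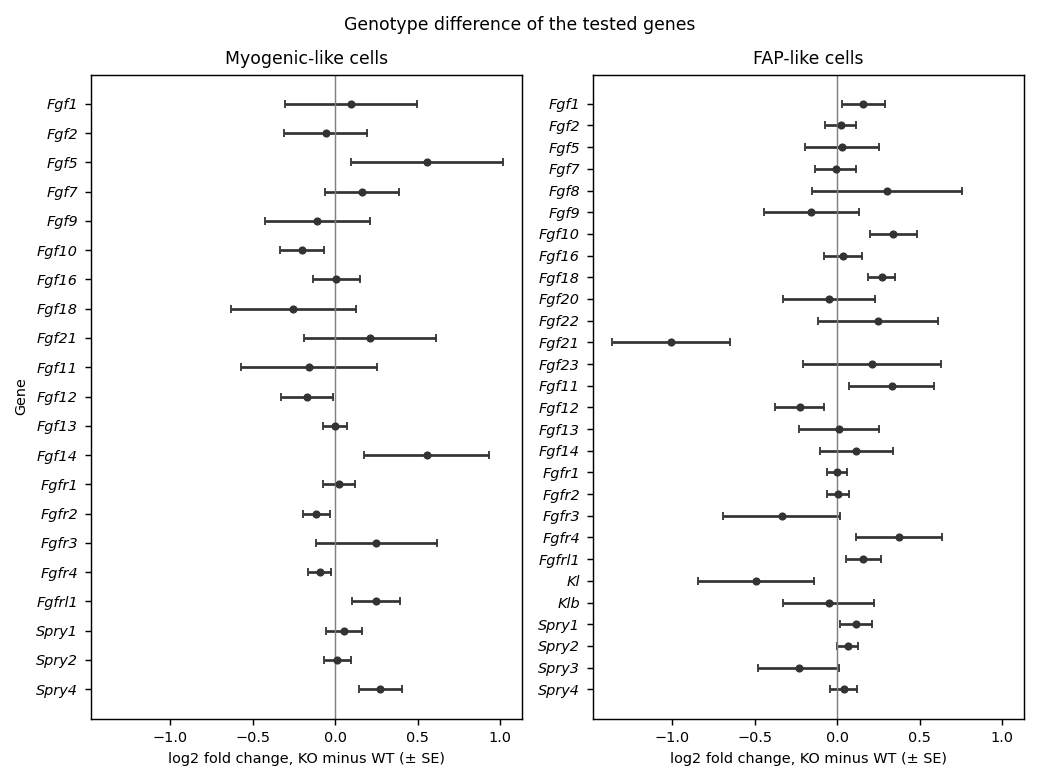
Log2 fold change of KO against WT (x axis, dot) with its standard error (bar) for the tested genes of the FGF system in myogenic-like (left, 21 genes) and FAP-like cells (right, 28 genes), from edgeR. Abundant genes such as *Fgfr1* and *Spry1* lie close to 0 with short bars, and the widest bars belong to genes of few UMIs. *Fgfr4* lies close to 0 with a short bar in myogenic-like cells but at 0.37 ± 0.26 in FAP-like cells, where it is rare.

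At an unadjusted p under 0.05, which 3.73% of all genes passed over the 11 comparisons, 14 of the 170 tests (8.24%) passed, 12 of them with the higher level in KO. DESeq2 gave 5 such tests. Of all genes with such a p by edgeR, from 147 of 364 in tenocyte-like to 348 of 492 in mast-like cells were higher in KO. In myoblast-like cells they were 198 of 421. These 14 are given as values, since none held after adjustment (adjusted p of 0.344 to 1 by edgeR). The stages are part of the myogenic-like class and classes share libraries, so these tests are not independent of each other. They involve 10 genes.

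In myoblast-like cells, *Spry1* was at 31.6 and 35.4 CPM in WT and at 40.3 and 43.0 CPM in KO (log2 fold change 0.34 ± 0.13 SE). *Spry4* had the values given above (0.33 ± 0.13, and 0.22 without WT replicate 2), and *Fgf13* was at 24.6 and 30.5 CPM in WT and at 31.7 and 40.4 CPM in KO (0.41 ± 0.16). The differences were small beside the gap between stages. *Fgf13* is X-linked and was highest in KO replicate 2, the library with *Xist* UMIs, and without that library its log2 fold change was 0.21, so sex and genotype cannot be told apart there. The summed level of the 12 FAP markers in these cells was 309 and 353 CPM in WT and 466 and 391 CPM in KO, with 3 of 12 markers higher in both KO libraries and none at 0, and its part in the result was not tested.

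In FAP-like cells, *Fgf18* was 29.6 and 33.5 CPM in WT and 36.9 and 37.2 CPM in KO (0.27 ± 0.08), and *Fgf21*, a hormone-like ligand of very low level, was 1.09 and 0.702 CPM in WT and 0.524 and 0.345 CPM in KO (-1.01 ± 0.36). Without WT replicate 1 *Fgf21* was at -0.65. The myogenic markers summed to 121 and 96.4 CPM in the WT and 123 and 137 CPM in the KO FAP-like cells, 9 of 14 higher and 1 lower in both KO libraries and none at 0, and their part was not tested. *Fgf10* was also higher in both KO libraries there (0.34 ± 0.14, unadjusted p = 0.0515, adjusted p = 1 by edgeR) and lower in both in myogenic-like cells (-0.20 ± 0.13, adjusted p = 0.966). The difference between these 2 effects was tested as an interaction with library as a block: -0.55 ± 0.14, unadjusted p = 0.0043 by edgeR, adjusted p = 1. Of 27 genes of the system in that test 0 were called by edgeR, beside 0% of 18097 genes, 1 had an unadjusted p under 0.05, and DESeq2 called 0.

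In chondrocyte-like cells, *Fgfr3* had the lower values in KO given above (-0.66 ± 0.23), and *Spry2* was 111 and 107 CPM in WT and 152 and 124 CPM in KO (0.31 ± 0.13). KO replicate 1 held 178 cells of this class and the other libraries 389 to 1027. Without WT replicate 2, *Fgfr3* was at -0.99, and *Fgf12* was at 1.25, against 0.49 with all libraries. With no filter on low genes *Fgfr3* was called at -0.66 (adjusted p = 0.0295 by edgeR), in a run that called 56 of 22033 genes. Without WT replicate 1 *Fgfr3* was at -0.34 and without KO replicate 2 at -1.05, and *Spry2* was at 0.20 without KO replicate 1. The FAP markers summed to 16432 and 16853 CPM in the WT and 17307 and 18944 CPM in the KO chondrocyte-like cells, 2 of 12 higher in both KO libraries and none at 0, and their part was not tested. In tenocyte-like cells *Fgf8* was 3.68 and 3.89 CPM in WT and 6.89 and 5.93 CPM in KO (0.78 ± 0.29). The FAP markers summed to 39560 and 40490 CPM in WT and 36130 and 38873 CPM in KO. Of these markers 5 of 12 were lower in both KO libraries and none was at 0. FAP-like cells themselves held 27008 to 31367 CPM. In tenocyte-like and chondrocyte-like cells the sum can hold transcripts of the class itself, so it does not measure FAP RNA there. The part of these markers was not tested.

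In mast-like cells, *Spry1* was 18.8 and 27.7 CPM in WT and 69.2 and 46.6 CPM in KO (1.30 ± 0.33), and *Spry2* was 5.80 and 18.0 CPM in WT and 27.0 and 30.3 CPM in KO (1.24 ± 0.47). Without WT replicate 2, *Spry1* was at 1.58 and *Spry2* at 2.24. Without WT replicate 1 they were at 1.08 and 0.69. The FAP markers summed to 920 and 682 CPM in the WT and 2451 and 2335 CPM in the KO mast-like cells, all 12 higher in both KO libraries and none at 0, where FAP-like cells held 27008 to 31367 CPM. Their part in the result was not tested.

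In smooth muscle or pericyte-like cells, *Fgfr1* was 28.8 and 19.5 CPM in WT and 38.5 and 29.5 CPM in KO (0.50 ± 0.18), with the lowest KO value close to the highest WT value. Its log2 fold change was 0.82 without WT replicate 1 and 0.67 without KO replicate 2. It was 0.25 without WT replicate 2 and 0.30 without KO replicate 1. *Fgf12* was at 0.46 with all libraries and at 1.45 without WT replicate 1. The FAP markers, whose class has a higher *Fgfr1* level, summed to 3027 and 2531 CPM in WT and 4465 and 3699 CPM in KO there, 11 of 12 higher in both KO libraries and none at 0, and their part was not tested.

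In endothelial-like cells, *Fgf13* was 9.80 and 9.27 CPM in WT and 13.7 and 14.8 CPM in KO (0.59 ± 0.24). This X-linked gene was again highest in KO replicate 2, and without that library its log2 fold change was 0.53. With a looser cell filter it was 0.22. *Spry2* was at 0.54 ± 0.29 with all libraries and at 0.97 without KO replicate 1. There 10 of 12 FAP markers and 10 of 14 myogenic markers were higher in both KO libraries, with none at 0. The FAP markers summed to 1560 and 1154 CPM in WT and to 1965 and 2259 CPM in KO, and the myogenic markers to 42.4 and 35.6 CPM in WT and to 113 and 144 CPM in KO. The part of both was not tested. In glial-like cells *Spry1* was 14.5 and 10.6 CPM in WT and 26.6 and 14.8 CPM in KO (0.73 ± 0.28), and *Fgf14* was 1.53 and 2.45 CPM in WT and 3.40 and 4.27 CPM in KO (0.96 ± 0.41). Without KO replicate 1 *Spry1* was at 0.25, and without WT replicate 1 *Fgf14* was at 0.64. The myogenic markers summed to 34.5 and 48.9 CPM in the WT and 49.8 and 119 CPM in the KO glial-like cells. Of these 5 of 14 were higher and 1 lower in both KO libraries, with none at 0. Without the doublets called by Scrublet the sums were 31.3 and 38.3 CPM in WT and 47.4 and 35.2 CPM in KO. The FAP markers summed to 10754 and 11528 CPM in WT and 10478 and 10979 CPM in KO, 4 of 12 higher and 2 lower in both KO libraries. The part of both lists was not tested.

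**Figure D5:**
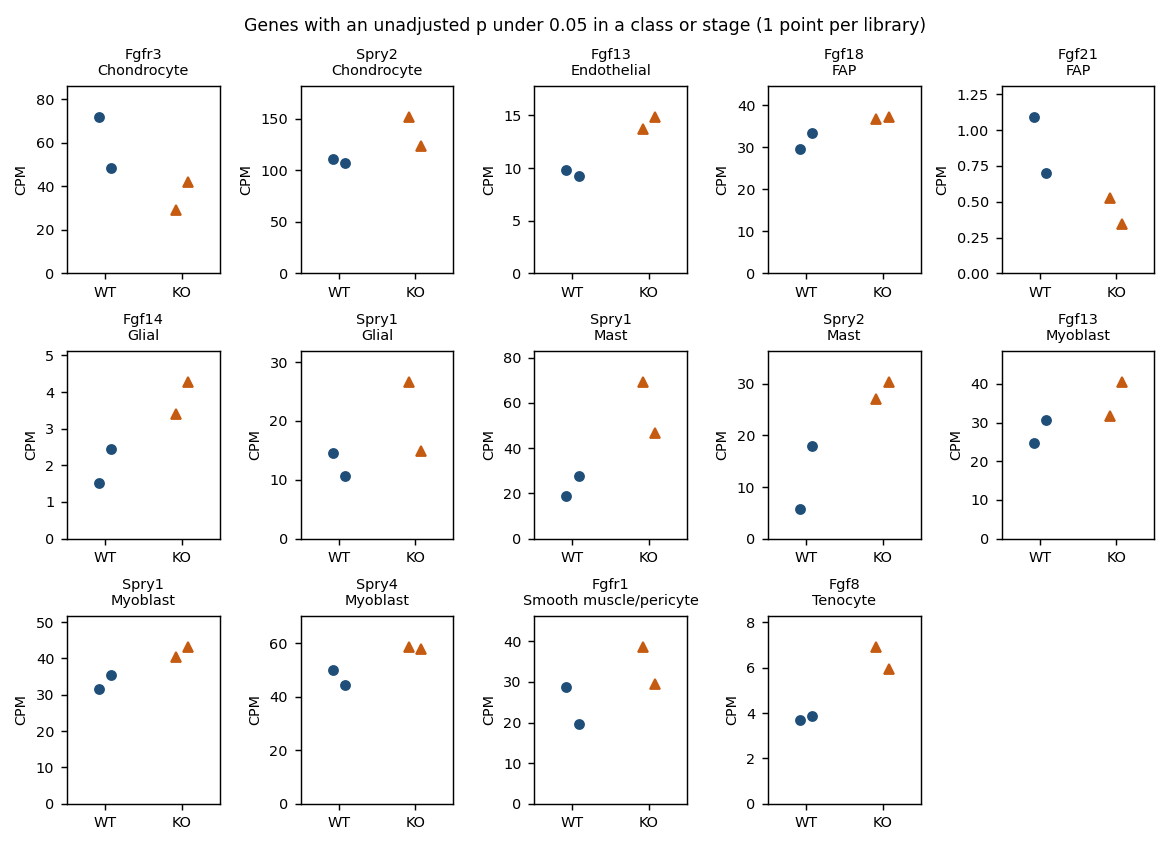
CPM in each library (y axes, each from 0; circles WT, triangles KO) for the 14 gene and class pairs with an unadjusted p under 0.05. In 12 panels the KO points lie above, and several gaps between genotypes are smaller than the gap between the libraries of 1 genotype.

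In the sum over all kept cells 0 of 29 genes of the system were called, beside 0% of 20419 genes, and 0 passed an unadjusted p of 0.05 (edgeR; DESeq2 called 0 and gave 1). In such a sum fewer cells of a class and less RNA per cell cannot be told apart. *Fgfr3* was at 4.61 and 5.17 CPM in WT and at 1.42 and 5.50 CPM in KO. Its log2 fold change was -0.44 with all libraries and -1.75 without KO replicate 2. That setting leaves KO replicate 1, the library with the fewest chondrocyte-like cells, as the only KO library.

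Of the 57 other pathway genes 0 were called in any class or stage or in the sum of all cells (641 tests). By edgeR 35 of these 641 tests had an unadjusted p under 0.05. Of all genes, 3.73% passed over the classes and stages, a share that leaves out the sum of all cells. In that sum 961 of 20419 genes passed. DESeq2 gave 17 and also called 0. In myogenic-like cells 1 of 10 adaptors, 4 of 10 Ras and MAP kinases, 9 of 12 ERK-induced genes, 1 of 7 other inhibitors and 9 of 17 carriers and co-receptors had the higher level in KO. List medians ran from -0.08 to 0.11 on the log2 scale, against 0.0022 over all genes. The genes with an unadjusted p under 0.05 there were *Sos2* (-0.22 ± 0.08 SE), *Spred3* (-0.90 ± 0.28) and *Flrt1* (-0.53 ± 0.22). Of all genes tested in that class, 526 of 14713 had such a p. In FAP-like cells 5 of 10, 5 of 10, 7 of 12, 2 of 7 and 7 of 18 of the same lists had the higher level in KO, where the median over all genes was -0.00071. Those with an unadjusted p under 0.05 were *Fos* (0.22 ± 0.06), *Myc* (0.35 ± 0.11) and *Phlda1* (0.34 ± 0.10), of 12 ERK-induced genes, and *Flrt3* (0.29 ± 0.08). Of all genes tested in FAP-like cells, 540 of 18375 had such a p. *Fos*, as said above, also responds to cell dissociation.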

How the data were processed

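Per the labels, leg muscle cells were run on a droplet kit that reads transcript ends. Per the submitters' processing notes, the authors used Cell Ranger 7.2.0 and mm10, and the deposited values are unnormalised UMI counts. Whether intronic reads were counted is not given in the sources used here. The members and lists were chosen with earlier results of these data known. The study's cell filter was kept (1000 to 6000 genes, 1000 to 25000 UMIs, mitochondrial share under 8%), with no doublet caller in the main setting (Scrublet called 1.65% to 2.56% of kept cells). Clusters (scanpy 1.11.5, Leiden resolution 0.3, 3000 variable genes without the members, 30 components) were named from marker lists by a rule set after the data were seen. Summed counts per library and class were tested with edgeR 4.0.16 (TMM factors, filterByExpr), tested on simulated data first, with DESeq2 1.42.0 as an alternative. With 2 libraries per genotype, p-values measure the spread between these libraries. Every-library values are given for members at a mean of 20 CPM or more in their highest class and for those with an unadjusted p under 0.05, ranges for other classes, and up to 3 pathway genes per list by level in myogenic-like cells.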

Additional observations from a re-analysis of the deposited data

How the results depend on the processing

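The count of FGF system genes called was 0 in myogenic-like cells, in FAP-like cells, in the myogenic stages and in the interaction under each alternative run: other scaling, DESeq2, no filter on low genes, the replicate block, each library left out, Scrublet, resolution 1, genes of the system kept in clustering, centring by library and a looser cell filter. In the other classes together it was 1 with no filter on low genes (*Fgfr3*, chondrocyte-like), 1 with the replicate block and 1 to 4 with a library left out, and in the sum of all cells it was 0 to 1 with a library left out. The cause was not tested. A lone library of a genotype is then assumed to vary like the others. The gene called under the replicate block was *Fgfr1* in smooth muscle or pericyte-like cells (0.51 on the log2 scale, adjusted p = 0.0269 by edgeR). That run called 158 of 12612 genes in this class, against 19 in the main fit. Libraries share only a number in the labels, and the deviations of same-numbered libraries correlated at 0.07 in myogenic-like and 0.19 in FAP-like cells over 2 pairs. With the looser cell filter *Fgf14* in glial-like cells reversed, to -0.27, and the cause was not tested. The highest class stayed the same for 14 of 16 genes when the genes of the system were kept in clustering (*Fgf9* and *Fgf18* became highest in chondrocyte-like cells) and for 16 of 16 under the other settings. Depth limits the 9 ligands and 2 Klotho genes of few UMIs, for which no order was read.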
